A study of Mus musculus with 2 samples.

Results

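The ependymal cells of the arcuate nucleus and median eminence were taken as barcodes of a single-cell table that met a rule on marker transcripts. Among barcodes with at least 500 genes, a member had a unique molecular identifier (UMI, 1 counted transcript) for at least 3 of Ccdc153, Foxj1, Tmem212, Dynlrb2, Enkur, Ak7 and Cfap126, and for at most 2 of the neuronal genes Snap25, Syt1, Stmn2, Meg3 and Snhg11. The rule found 280 of 3801 barcodes, 97 of 1972 in the Irx5KO library and 183 of 1829 in the wild-type (WT) library. The members were chosen by these measured UMIs, so their levels of the rule genes, and their profile against other barcodes, are a description.

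The Irx5KO library came from 6 pooled mice of genotype Irx5-/- and the WT library from 7 pooled wild-type mice, all of strain CD-1 and aged 7 to 8 weeks. Arcuate nucleus and median eminence were microdissected and dissociated, live cells were sorted, and transcripts were counted at their 3' ends by Drop-seq, a droplet method. The sources used here do not state the sex of the mice or how the Irx5 allele was made. Each genotype is 1 library, so no difference between them has a replicate check, no test was made, and each 95% interval covers counting error only.

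Ependymal cells form the ciliated sheet that lines the brain ventricles, and their motile cilia move cerebrospinal fluid. A motile cilium holds a ring of doublet microtubules with dynein arms, radial spokes, a central pair and proteins inside the doublets, and it is built by intraflagellar transport. Foxj1 is the transcription factor that switches on motile cilium genes, and RFX factors act with it. On the floor and lower walls of the third ventricle the sheet passes into tanycytes, glia with long basal processes that share several genes with ependymal cells and astrocytes.

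Irx5, the homeobox gene that the Irx5KO mice lack, had 0 UMIs in Irx5KO members and 5 in WT members. These are too few for a ratio within the members to show a difference (upper bound of the ratio 2.01). In all other barcodes Irx5 had 0 UMIs in Irx5KO and 8 in WT, with an upper bound of the ratio of 0.43. Its paralogue and neighbour Irx3 had 2 UMIs in Irx5KO members, against 19 in WT members, a ratio of 0.19 (95% interval 0.02 to 0.80). Within the members with 5 to 7 rule genes the same ratio was 0.51 (0.06 to 2.16). In all other barcodes Irx3 had 2 UMIs in Irx5KO and 10 in WT, a ratio of 0.15 (0.02 to 0.69), so the lower count was not limited to the members. Irx1, Irx2 and Irx6 had 0 UMIs in the members of both libraries. In all other barcodes Irx1 had 15 UMIs in Irx5KO and 12 in WT, Irx2 had 9 in Irx5KO and 11 in WT, and Irx6 had 0 in Irx5KO and 2 in WT.

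The label held for part of the members. Members with 5 to 7 rule genes had high levels of cilium genes, and many members with 3 or 4 also carried transcripts of tanycytes. At least 3 of 10 tanycyte markers had a UMI in 45 of 97 Irx5KO members (46.4%) and in 48 of 183 WT members (26.2%). In the members with 3 rule genes this share was 61.4% in Irx5KO and 42.3% in WT, and in those with 7 it was 0% of 5 Irx5KO barcodes and 3.12% of 32 WT barcodes. At 5 rule genes it was 38.5% of 13 Irx5KO barcodes and 25.8% of 31 WT barcodes. Over the whole 5 to 7 range it was 22.2% in Irx5KO and 14.4% in WT, and the tanycyte list summed to 1081 CPM in Irx5KO and 679 CPM in WT (CPM are UMIs scaled to a common total per group). That range is therefore not free of tanycyte transcripts. "Ependymal barcodes" and "members" below mean all barcodes that met the rule, and the main genotype values are given with their values in the members with 5 to 7 rule genes. That split was made after the values were seen.

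Apart from tanycytes and astrocytes, few members had 3 or more markers of another cell type. At least 3 mural markers were found in 0 Irx5KO members and 1 WT member. For pars tuberalis this was 1 Irx5KO member and 0 WT members. The red blood list summed to 274 CPM in Irx5KO and 205 CPM in WT members, against 31.4 CPM and 280 CPM in other barcodes. In the 5 to 7 range the mural list summed to 428 CPM in Irx5KO and 50.3 CPM in WT, against 334 CPM and 525 CPM in other barcodes. At least 3 oligodendrocyte markers were found in 1 Irx5KO and 2 WT members, at least 3 vascular leptomeningeal markers in 0 Irx5KO members and 1 WT member, and at least 3 markers of oligodendrocyte precursors, microglia, endothelium or choroid plexus in 0 of either library. Ttr, the defining transcript of choroid plexus, had 0 UMIs in Irx5KO members and 1 in WT members. Of 9 astrocyte markers, at least 3 were found in 53 Irx5KO and 80 WT members. The astrocyte list summed to 4080 CPM in Irx5KO and 2780 CPM in WT members, and to 1079 CPM and 813 CPM in other barcodes. In tanycyte barcodes it summed to 4711 CPM in Irx5KO and 3096 CPM in WT. Aqp4 stood at 374 CPM in members and 50.1 CPM in tanycyte barcodes. Slc7a10, an astrocyte amino acid transporter, had 0 UMIs in members of both libraries and was the only 1 of the 9 at 0.

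Ependymal barcodes had similar depth in the 2 libraries. The Irx5KO members had a median of 1711 UMIs and 1130 genes, and the WT members 1699 UMIs and 1137 genes. Their sums were 193611 UMIs in Irx5KO and 356461 in WT. The median mitochondrial share was 1.39% in Irx5KO members and 1.45% in WT members. No barcode sequence was a member in both libraries, and doublets were not removed beyond the limit on neuronal genes.

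Ependymal barcodes made up 4.92% (exact Clopper-Pearson 95% interval 4.01 to 5.97) of the Irx5KO library and 10.01% (8.67 to 11.5) of the WT library, a ratio of 0.492 (0.380 to 0.632). The gap was not even over the range of the rule. Members with 3 or 4 rule genes made up 3.55% of Irx5KO barcodes and 4.70% of WT barcodes, a ratio of 0.755 with an interval that includes 1 (0.543 to 1.05). Members with 5 to 7 made up 1.37% of Irx5KO barcodes and 5.30% of WT barcodes, a ratio of 0.258 (0.162 to 0.399). All 7 rule genes were found in 5 Irx5KO and 32 WT barcodes.

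**Figure D1:**
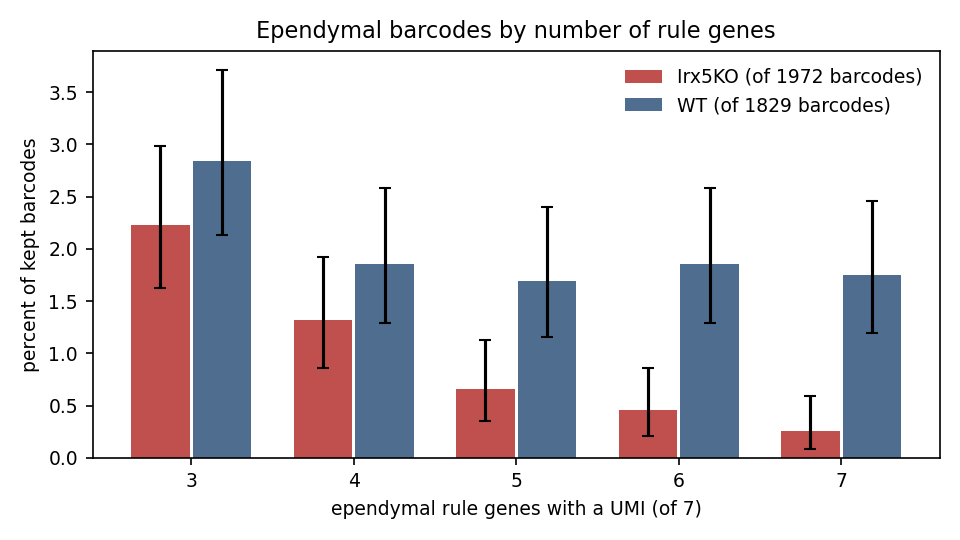
Share of kept barcodes, in percent, with 3 to 7 of the ependymal rule genes and at most 2 neuronal genes, for the Irx5KO and WT libraries, with exact 95% intervals of the counts. The bars lie close at 3 genes, 2.23% in Irx5KO and 2.84% in WT, and farthest apart at 7 genes, 0.254% in Irx5KO and 1.75% in WT.

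Just outside the rule, barcodes with 2 rule genes numbered 110 in Irx5KO and 91 in WT, and barcodes with enough rule genes but 3 or more neuronal genes numbered 5 in Irx5KO and 6 in WT. A lower share can come from fewer such cells captured and a lower count of rule genes from less RNA of those genes per cell, and the 2 cannot be told apart here. Other classes also differed in share between the dissections. Tanycyte barcodes, by rule, were 8.57% in Irx5KO and 6.62% in WT, neurons were 36.7% in Irx5KO and 25.3% in WT, and oligodendrocytes 5.88% in Irx5KO and 10.6% in WT. Their part in the lower ependymal share was not tested.

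Summed over the members at each number of rule genes, cilium genes rose and tanycyte markers fell as that number grew. Genes of the motile cilium outside the rule, 106 genes from lists of dynein arms, radial spokes and doublet proteins, summed to 11253 CPM in Irx5KO and 13032 CPM in WT members with 3 rule genes. In those with 7 they summed to 36062 CPM in Irx5KO and 36924 CPM in WT. The tanycyte list went the other way, with 3412 CPM in Irx5KO and 2814 CPM in WT at 3 rule genes, and 0 CPM in Irx5KO and 247 CPM in WT at 7. At equal numbers of rule genes from 3 to 6 the cilium sum was lower in Irx5KO, for example 14761 CPM against 19207 CPM in WT at 4 rule genes. At 7 rule genes the 2 sums were close. Single barcodes did not all follow the order of the sums. Among WT members with 3 rule genes, these cilium genes took from 0.273% to 4.41% of a barcode's UMIs. The barcode at 0.273% had 6 tanycyte markers and 3296 UMIs, and that at 4.41% had 0 tanycyte markers and 771 UMIs. The part of depth in a barcode's number of rule genes was not tested.

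**Figure D2:**
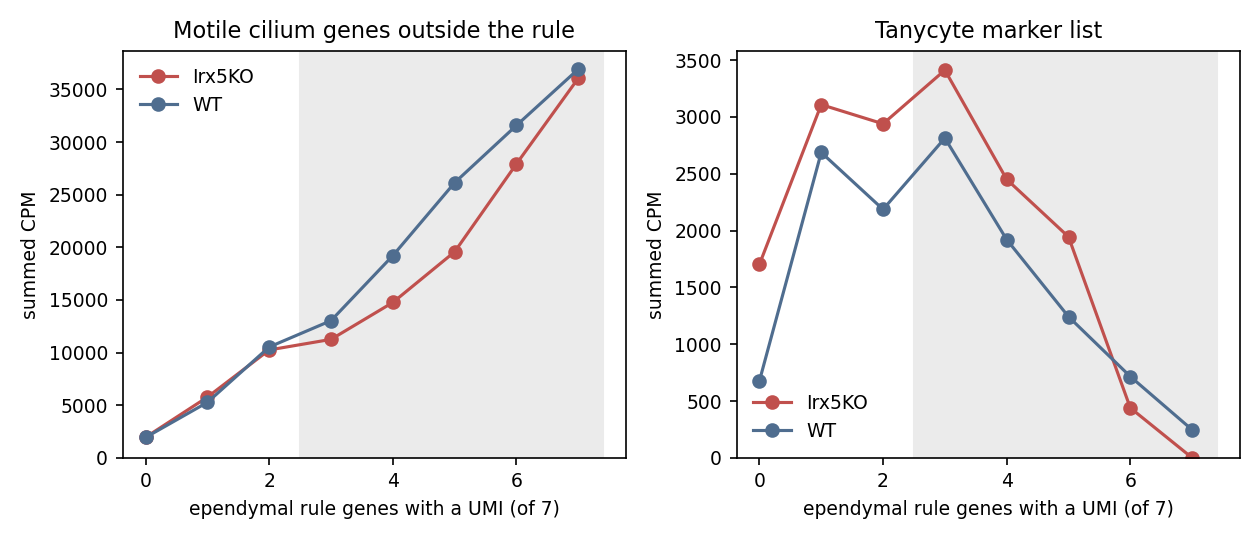
Summed CPM of motile cilium genes outside the rule (left) and of the 10 tanycyte markers (right) against the number of ependymal rule genes with a UMI, for barcodes of each library with at most 2 neuronal genes; members lie in the grey area. The cilium sum climbs to 36062 CPM in Irx5KO and 36924 CPM in WT, while the tanycyte sum in members is highest at 3 rule genes.

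Per barcode, the cilium genes took a median of 1.43% of the UMIs in Irx5KO members (range 0.407 to 5.15%) and 2.66% in WT members (range 0.273 to 4.89%). Among members with 5 to 7 rule genes the medians were 2.97% in Irx5KO and 3.31% in WT. The ranges of the 2 libraries overlapped. Tanycyte barcodes had medians of 0.464% in Irx5KO and 0.458% in WT, and oligodendrocyte barcodes 0.108% in both libraries.

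**Figure D3:**
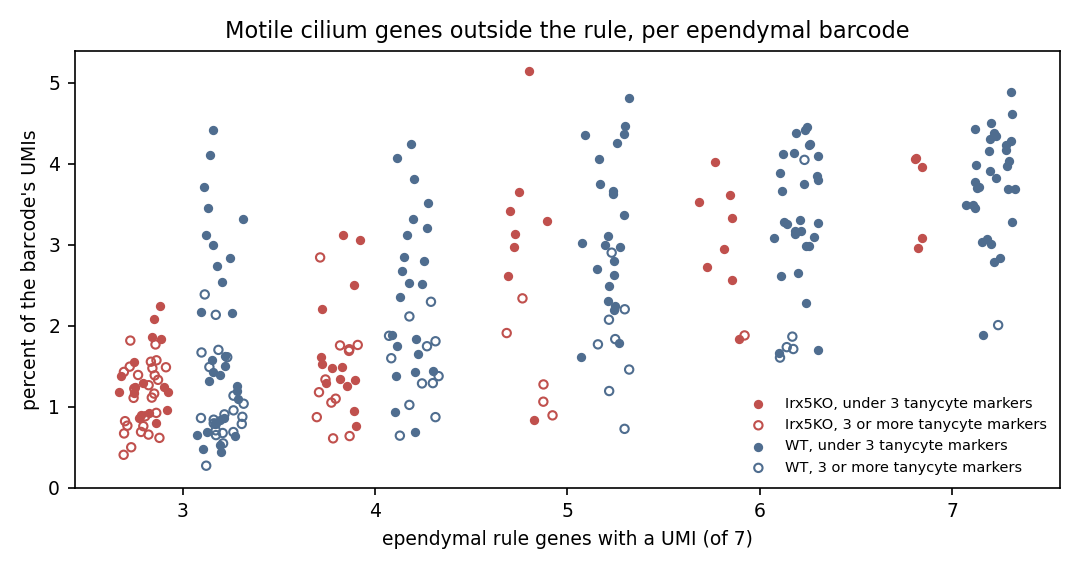
Percent of each ependymal barcode's UMIs from motile cilium genes outside the rule, by number of rule genes, for Irx5KO and WT members; open points have 3 or more of 10 tanycyte markers. Open points lie low and mostly at 3 to 5 rule genes, and the 5 Irx5KO barcodes with 7 rule genes lie among the 32 WT ones.

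Among the label markers, Ccdc153, a coiled-coil protein used as a marker of ependymal cells, had 429 CPM in Irx5KO members and 1377 CPM in WT members, against 5.26 CPM in all other barcodes. Tmem212, a membrane protein of ciliated cells, had 315 CPM in Irx5KO members and 1215 CPM in WT members. Foxj1 had 403 CPM in Irx5KO members and 690 CPM in WT members. Cdhr4, a cadherin-related gene outside the rule, had 6 UMIs in Irx5KO members and 78 in WT members, and 0.478 CPM in other barcodes. Ccdc153, Tmem212 and Foxj1 are rule genes, so their level above the other barcodes follows from the choice of members. Cdhr4 had its 6 Irx5KO UMIs in 3 of 97 members and its 78 WT UMIs in 40 of 183. All 4 label markers were lower in Irx5KO members.

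These gaps narrowed among members with 5 to 7 rule genes. The ratio of Ccdc153 was 0.31 over all members and 0.67 (0.52 to 0.86) among them, that of Tmem212 0.26 and 0.55 (0.40 to 0.74), and that of Foxj1 0.58 and 0.78 (0.53 to 1.12). The rule read these 3 genes, so the ratios describe the members it chose. The ratio of Cdhr4, which the rule did not read, was 0.14 (0.05 to 0.32) over all members. In the 5 to 7 range it was 0.34 (0.12 to 0.77), on 6 Irx5KO and 72 WT UMIs. After thinning every barcode to 1000 UMIs, Ccdc153 had a UMI in 15.7% of Irx5KO and 42.4% of WT members, and in 0% of tanycyte barcodes of either library, which allows up to 2.10% of 143 in Irx5KO and 2.75% of 109 in WT. Foxj1 had one in 32.5% of Irx5KO and 51.3% of WT members, and in 6.00% of Irx5KO and 0.602% of WT oligodendrocyte barcodes. Thinning left out 14 Irx5KO and 25 WT members.

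Against all other barcodes, 67 of 989 genes with at least 100 UMIs in members were at least 10-fold higher, which is 6.77% of the genes measured. These are a property of the choice of members. Apart from the rule genes they included Gm45396 at 574 CPM in members and 13.4 CPM in others, Odf3b at 404 CPM in members and 11.2 CPM in others, and Mns1, a doublet protein of cilia, at 811 CPM in members and 46.2 CPM in others. Rarres2, which encodes the secreted chemoattractant chemerin, had 1220 CPM in members and 71.0 CPM in others. Cd24a, a surface protein known from ependymal cells, had 476 CPM in members and only 9.10 CPM in tanycyte barcodes.

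Genes outside cilium lists also differed with the number of rule genes. Comparing 981 genes between the 2 ranges, 89 stood 2-fold or more above in the members with 5 to 7 rule genes and 44 stood 2-fold or more below. Of 41 genes on the 6 cilium lists, 19 stood above and 0 below. Of 940 genes outside them, 70 stood above and 44 below, so the share above was larger on the cilium lists. Pcp4l1 had 754 CPM in the higher range and 109 CPM in the lower. Tm4sf1 had 730 CPM in the higher range and 96.0 CPM in the lower, Hdc, the enzyme that makes histamine, had 476 CPM and 86.1 CPM, and Pltp, a phospholipid transfer protein, had 1593 CPM and 420 CPM. In the other direction stood Cldn10, a tight junction protein, with 64.5 CPM in the higher range and 503 CPM in the lower, Frzb, a secreted Wnt antagonist, with 48.4 CPM and 334 CPM, and Ptn, a secreted growth factor, with 1041 CPM and 5700 CPM. Their tanycyte levels were 2372 CPM for Cldn10, 232 CPM for Frzb and 8083 CPM for Ptn. These genes were chosen after their values were seen.

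Between the libraries, 2310 genes had at least 50 UMIs in members. Irx5KO members had 60 of them (2.6%) at 2-fold or more above WT members and 166 (7.19%) at 2-fold or more below, 226 (9.78%) in all, and the median log2 ratio of Irx5KO over WT was -0.05. The lists of cilium genes had medians below that of all genes, while a few abundant secreted and lipid-handling genes were higher in Irx5KO members. The counts of list genes below are to be read against these shares of all measured genes. The dynein arm list holds the rule gene Dynlrb2, the radial spoke list Ak7 and the doublet list Enkur and Cfap126, so their values are given without these as well.

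Of the dynein arm list, the motors that bend the cilium, 0 of 16 measured genes stood at least 2-fold higher and 4 lower, with a median log2 ratio of -0.63. The list summed to 3450 CPM in Irx5KO members and 5165 CPM in WT members, a ratio of 0.67 (0.61 to 0.73). Among members with 5 to 7 rule genes the ratio was 0.83 (0.73 to 0.95). Without Dynlrb2 the ratio was 0.67 (0.60 to 0.74) over all members and 0.81 (0.69 to 0.94) in the 5 to 7 range, and the median log2 ratio of the 15 genes left was -0.63. Dnali1, an inner arm light chain, had 181 CPM in Irx5KO and 368 CPM in WT members, and its ratio was 0.49 (0.33 to 0.72) over all members and 0.69 (0.38 to 1.18) in the 5 to 7 range. In tanycyte barcodes the ratio of the list was 0.93 (0.81 to 1.08).

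Of the radial spoke and central pair list, which regulates the dyneins, 0 of 25 were at least 2-fold higher and 6 lower, with a median log2 ratio of -0.59. Without Ak7 the median of 24 genes was -0.58, and the ratio of the sum was 0.62 (0.58 to 0.67) over all members and 0.74 (0.66 to 0.83) in the 5 to 7 range. Rsph1, a radial spoke head protein, was the most abundant member, with 182 UMIs (940 CPM) in Irx5KO and 904 UMIs (2536 CPM) in WT, a ratio of 0.37 (0.31 to 0.44). Rsph1 was also lower among members with 5 to 7 rule genes, with 1386 CPM in Irx5KO and 3379 CPM in WT and a ratio of 0.41 (0.31 to 0.53). After thinning, Rsph1 had a UMI in 51.8% of Irx5KO and 81.6% of WT members, and in 3% of Irx5KO and 1.20% of WT oligodendrocyte barcodes. Its ratio was 0.71 in tanycyte barcodes and 0.56 (0.50 to 0.63) in all other barcodes, so the lower level was not limited to the members. Another spoke head gene, Rsph4a, gave 0.82 (0.63 to 1.07) over all members and 1.04 (0.70 to 1.502) among those with 5 to 7 rule genes, so the spoke head genes did not share 1 ratio.

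Of the list of proteins inside the doublets and tektins, 0 of 32 were at least 2-fold higher and 8 lower, with a median log2 ratio of -0.55. Without Enkur and Cfap126 the median of 30 genes was -0.56, and the ratio of the sum was 0.64 (0.60 to 0.67) over all members and 0.82 (0.75 to 0.89) in the 5 to 7 range. Sntn, the gene of sentan, a protein of the ciliary tip, had 1 UMI in Irx5KO members and 93 in WT members, a ratio of 0.02 (0.00 to 0.11). Among members with 5 to 7 rule genes it had 1 UMI in Irx5KO and 88 in WT, a ratio of 0.05 (0.00 to 0.26). After thinning to 1000 UMIs per barcode, Sntn had a UMI in 0% of Irx5KO members and 21.5% of WT members, and in 0% of tanycyte and oligodendrocyte barcodes of either library. The 0 of 83 Irx5KO members allows a share of up to 3.61%. Tekt4, a tektin, had 6 UMIs in Irx5KO and 52 in WT, a ratio of 0.21 (0.07 to 0.49), and 0.39 (0.10 to 1.06) in the 5 to 7 range. Tppp3 gave 0.78 (0.65 to 0.95) over all members and 0.83 (0.60 to 1.12) in that range. Fam216b gave 0.37 (0.24 to 0.56) over all members and 0.45 (0.23 to 0.81) in that range.

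Of the intraflagellar transport and BBSome list, which builds and loads cilia in most cell types, 0 of 14 were at least 2-fold higher and 1 lower, with a median log2 ratio of -0.43. Of the dynein assembly factors, 0 of 6 were higher and 1 lower, with a median of -0.42, and among members with 5 to 7 rule genes the sum gave a ratio of 1.001 (0.80 to 1.25). Foxj1, a rule gene, was the sole multiciliation factor with enough UMIs. Of 5 measured tubulins, 2 were at least 2-fold higher, Tubb5 at 222 CPM in Irx5KO and 104 CPM in WT and Tubb2a at 196 CPM in Irx5KO and 75.7 CPM in WT. In the 5 to 7 range the ratio of Tubb5 was 3.605 (1.21 to 10.5) and that of Tubb2a 1.62 (0.52 to 4.42).

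**Figure D4:**
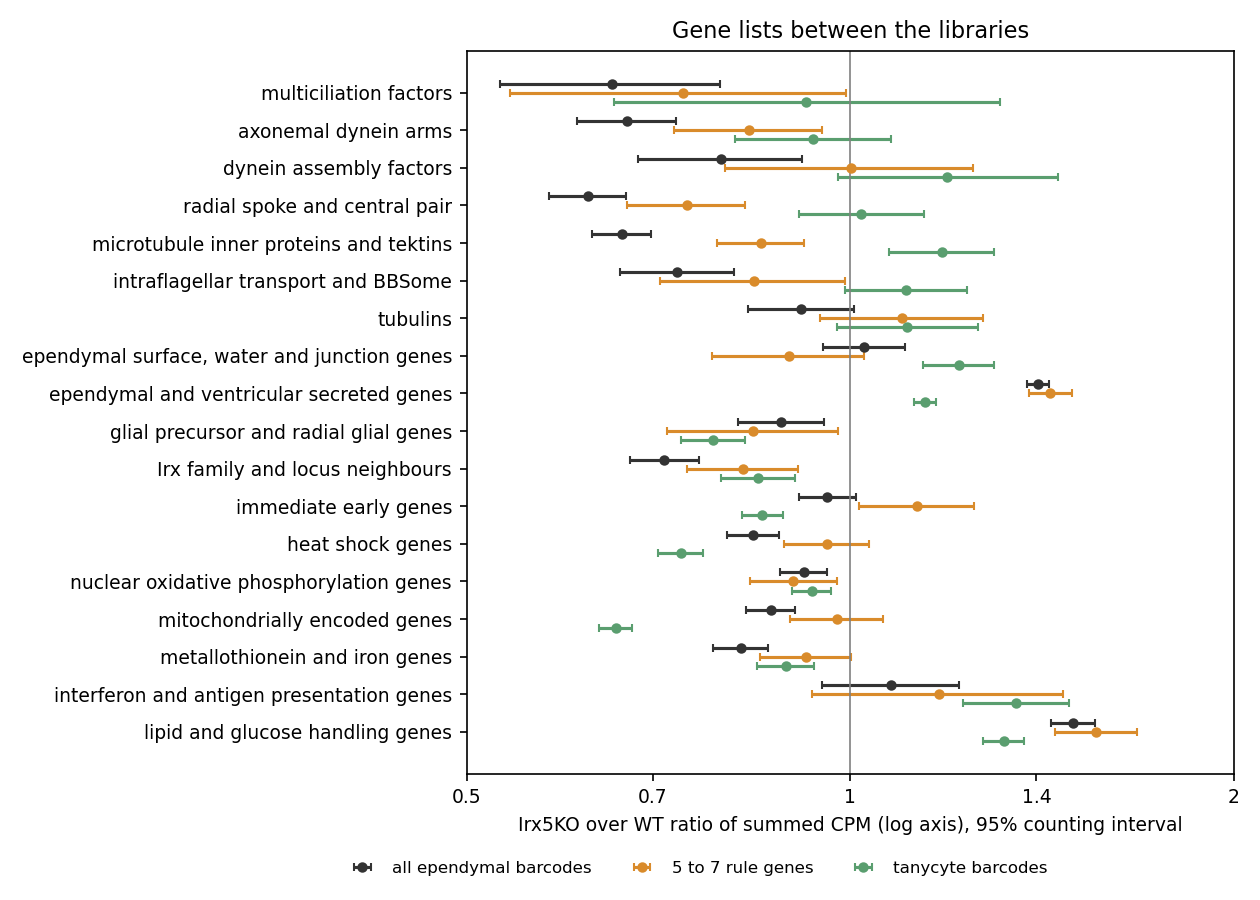
Ratio of summed CPM, Irx5KO over WT, for 18 gene lists, rule genes included, with 95% counting intervals on a log axis, over all ependymal barcodes, those with 5 to 7 rule genes, and tanycyte barcodes. The cilium lists lie between 0.62 and 0.79 over all members and nearer to 1 at 5 to 7 rule genes, and secreted and lipid genes lie above 1 in all 3 sets.

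Gene by gene, the rule for named genes gave 15 on the lower side, and 13 of these were also at least 2-fold lower among members with 5 to 7 rule genes. Those barcodes are part of the members on which the 15 were picked, so this is not a separate check. Of all 896 genes with at least 50 UMIs in that range, 87 were at least 2-fold lower. Chek2, the checkpoint kinase, had 8 UMIs in Irx5KO and 92 in WT, a ratio of 0.16 (0.07 to 0.33), and 0.14 (0.03 to 0.44) in the 5 to 7 range. Iqca, a component of the nexin-dynein regulatory complex of the axoneme, had 17 UMIs in Irx5KO and 125 in WT, a ratio of 0.25 (0.14 to 0.42) and 0.32 (0.13 to 0.64) in that range. Mettl7a1 had 12 UMIs in Irx5KO and 93 in WT, a ratio of 0.24 (0.12 to 0.44) and 0.10 (0.01 to 0.38) in that range. Cald1, an actin-binding protein, gave 0.33 (0.22 to 0.49) and 0.25 (0.11 to 0.51) in that range. Gm45396 had 39 UMIs in Irx5KO and 277 in WT, a ratio of 0.26 (0.18 to 0.36) and 0.19 (0.09 to 0.34) in that range. S100b, a calcium-binding protein of ependymal and astroglial cells, gave 0.33 (0.23 to 0.46) and 0.47 (0.29 to 0.73) in that range, but also 0.23 (0.20 to 0.26) in all other barcodes. In tanycyte barcodes S100b had only 3 UMIs in Irx5KO and 5 in WT, a ratio of 0.45 with an interval that includes 1 (0.07 to 2.29).

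Several of the other lower genes are hard to read. Hmgb1, Rpl38, Ptma, Gm10263, Gm9800 and Gm4617 have near-identical copies between which reads can be split, and Hmgb1 was at a ratio of 0.23 in members and 0.23 in all other barcodes too. 3300002A11Rik is annotated as antisense, and no source used here states the strand used in counting. Its ratio was 0.28 in members and 1.97 in other barcodes. Of the 15 genes, 7 were at least 2-fold lower in tanycyte barcodes and 6 in all other barcodes. The share of all genes at least 2-fold lower in these sets was not counted, so the 2 counts have no background. In tanycyte barcodes the interval includes 1 for S100b (0.07 to 2.29) and Gm45396 (0.22 to 1.09).

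The genes of ependymal barcodes outside any cilium list also differed in how far they held up. Pcp4l1 had 29 UMIs in Irx5KO and 191 in WT members, a ratio of 0.28 (0.18 to 0.41), and 469 CPM in Irx5KO against 825 CPM in WT in the 5 to 7 range, where the ratio was 0.57 (0.35 to 0.88). Sox9, a transcription factor of glia, had 537 CPM in Irx5KO and 822 CPM in WT members, and 408 CPM in Irx5KO and 955 CPM in WT in the 5 to 7 range, where its ratio was 0.43 (0.25 to 0.68). Hes1, a Notch target, had 718 CPM in Irx5KO and 1184 CPM in WT members, a ratio of 0.61 (0.50 to 0.74), and 1.09 (0.69 to 1.69) in the 5 to 7 range. It was at 0.52 in tanycyte barcodes and 0.51 in all other barcodes.

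Surface genes were mixed. Of 16 measured, 0 were at least 2-fold higher and 3 lower, with a median log2 ratio of 0.17. Cdhr3, a cadherin-related gene of ciliated cells, had 4 UMIs in Irx5KO and 47 in WT, a ratio of 0.16 (0.04 to 0.43) and 0.09 (0.00 to 0.53) in the 5 to 7 range. Aqp4, the water channel, had 253 CPM in Irx5KO and 440 CPM in WT, a ratio of 0.57 (0.41 to 0.80) and 0.65 (0.39 to 1.05) in the 5 to 7 range. Gja1, which encodes the gap junction protein connexin 43, had 1183 CPM in Irx5KO and 898 CPM in WT, a ratio of 1.32 (1.11 to 1.57) and 1.18 (0.86 to 1.59) in the 5 to 7 range.

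These windows are shown because they carry the 3 motifs searched in genes named above: the X-box of RFX factors (GTTNCC and GGNAAC with 2 free bases between), its half-site (GTTGCCA) and a forkhead core (TGTTTAC), on both strands. Windows run from 250 bases before to 50 after the gene start and come from RefSeq on GRCm38.p6, 5' to 3' on the gene's strand, with matches in capitals. A half-site can lie inside an X-box, as in Iqca.

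Iqca (chr1:90153387-90153686, minus strand): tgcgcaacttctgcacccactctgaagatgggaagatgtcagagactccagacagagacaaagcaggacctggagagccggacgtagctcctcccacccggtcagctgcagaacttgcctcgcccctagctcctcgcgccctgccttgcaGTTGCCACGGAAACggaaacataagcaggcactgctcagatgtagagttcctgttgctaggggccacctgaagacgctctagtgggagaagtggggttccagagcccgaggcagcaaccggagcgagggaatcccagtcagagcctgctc
Sntn (chr14:13670626-13670925, plus strand): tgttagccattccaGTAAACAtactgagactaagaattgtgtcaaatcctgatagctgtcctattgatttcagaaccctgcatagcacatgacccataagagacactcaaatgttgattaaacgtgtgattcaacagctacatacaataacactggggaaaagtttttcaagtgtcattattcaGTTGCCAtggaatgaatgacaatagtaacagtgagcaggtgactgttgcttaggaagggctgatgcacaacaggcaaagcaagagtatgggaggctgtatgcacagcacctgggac
Cdhr3 (chr12:33092826-33093125, minus strand): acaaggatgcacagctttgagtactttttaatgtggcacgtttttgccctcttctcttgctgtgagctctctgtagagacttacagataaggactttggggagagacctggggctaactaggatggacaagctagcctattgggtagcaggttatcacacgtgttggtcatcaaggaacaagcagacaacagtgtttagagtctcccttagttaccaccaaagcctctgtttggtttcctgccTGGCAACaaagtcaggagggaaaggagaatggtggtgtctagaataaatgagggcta
Ak7 (chr12:105705732-105706031, plus strand): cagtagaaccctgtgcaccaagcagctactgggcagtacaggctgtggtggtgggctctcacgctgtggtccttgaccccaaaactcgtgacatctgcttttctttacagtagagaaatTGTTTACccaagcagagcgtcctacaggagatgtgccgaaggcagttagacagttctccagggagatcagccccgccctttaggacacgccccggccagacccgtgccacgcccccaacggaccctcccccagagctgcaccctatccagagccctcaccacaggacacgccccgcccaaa

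Windows were searched for the lists of dynein arms, dynein assembly, radial spokes and doublet proteins, of which 98 of 126 genes had a window. Of these 110 windows, 18.2% held the half-site, against 4.38% of all 32851 windows. The X-box was in 1.82% against 0.451%, and the forkhead core in 6.36% against 3.65%. The intraflagellar transport and BBSome list, taken apart, had 29 windows. Of these, 24.1% held the half-site, 10.3% the X-box and 0% the forkhead core. The 8 windows of tanycyte markers, from 7 of 10 genes, held none of the 3. The 8 windows of the rule genes came from 6 of 7 genes, with none for Foxj1. They held 0 X-boxes, 0 half-sites and 1 forkhead core. Only exact matches to the letters were counted, so a 0 does not show that a gene lacks sites of these factors. Matches describe letters in these windows, and the genes printed were chosen after their values were seen.

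Secreted genes were among the most abundant. Of 19 measured, 0 were at least 2-fold higher and 2 lower, yet the sum was 87092 CPM in Irx5KO members and 62018 CPM in WT, a ratio of 1.404 (1.38 to 1.43). Cst3, the protease inhibitor cystatin C, had 39450 CPM in Irx5KO and 22039 CPM in WT, a ratio of 1.79 (1.73 to 1.85), and 22876 CPM in Irx5KO against 12494 CPM in WT in the 5 to 7 range. In tanycyte barcodes the ratio of Cst3 was 1.16. Apoe, the lipid carrier of glia, had 16502 CPM in Irx5KO and 10189 CPM in WT, a ratio of 1.62 (1.54 to 1.70), 1.72 (1.57 to 1.87) in the 5 to 7 range and 1.33 in tanycyte barcodes. Rarres2 stood against this direction, with 671 CPM in Irx5KO and 1518 CPM in WT, a ratio of 0.44 (0.36 to 0.54) and 0.66 (0.51 to 0.85) in the 5 to 7 range.

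Of the 7 genes named on the higher side, 2 were also at least 2-fold higher in the 5 to 7 range, Frzb and Gm11942. Of all 896 genes with at least 50 UMIs in that range, 17 were at least 2-fold higher. Frzb had 66 UMIs in Irx5KO and 47 in WT, a ratio of 2.59 (1.75 to 3.84), and 2.90 (0.72 to 10.6) in that range on 5 Irx5KO and 7 WT UMIs. Slc1a2, the glial glutamate transporter, gave 2.32 (1.70 to 3.17), Acsl3, an acyl-CoA synthetase, 2.29 (1.70 to 3.10), Gpr50, an orphan receptor of tanycytes, 2.12 (1.47 to 3.06) and Tsc22d1 2.03 (1.41 to 2.92). In the 5 to 7 range the ratio was 1.502 (0.65 to 3.20) for Slc1a2, 1.56 (0.80 to 2.89) for Acsl3, 1.58 (0.56 to 3.96) for Gpr50 and 1.88 (0.90 to 3.76) for Tsc22d1, and all 4 intervals include 1. Frzb and Gpr50 are tanycyte markers and Slc1a2 an astrocyte marker, lists whose sums were 2562 CPM in Irx5KO and 1467 CPM in WT members for tanycytes and 4080 CPM in Irx5KO and 2780 CPM in WT members for astrocytes. Their part in these ratios was not tested. Gm11942 gave 2.22 (1.80 to 2.74) over all members, 2.66 (1.91 to 3.69) in the 5 to 7 range and 1.94 in all other barcodes. Gm11942 and Gm12328 have near-identical copies. Of the 7 genes, 6 were also on the higher side in tanycyte barcodes, all but Frzb at 0.95. In all other barcodes 6 were, all but Tsc22d1 at 0.85. In each set 1 was at least 2-fold higher, Slc1a2 at 2.65 in tanycyte barcodes and Gm12328 at 2.09 in all other barcodes. The share of all genes on the higher side in these sets was not counted.

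**Figure D5:**
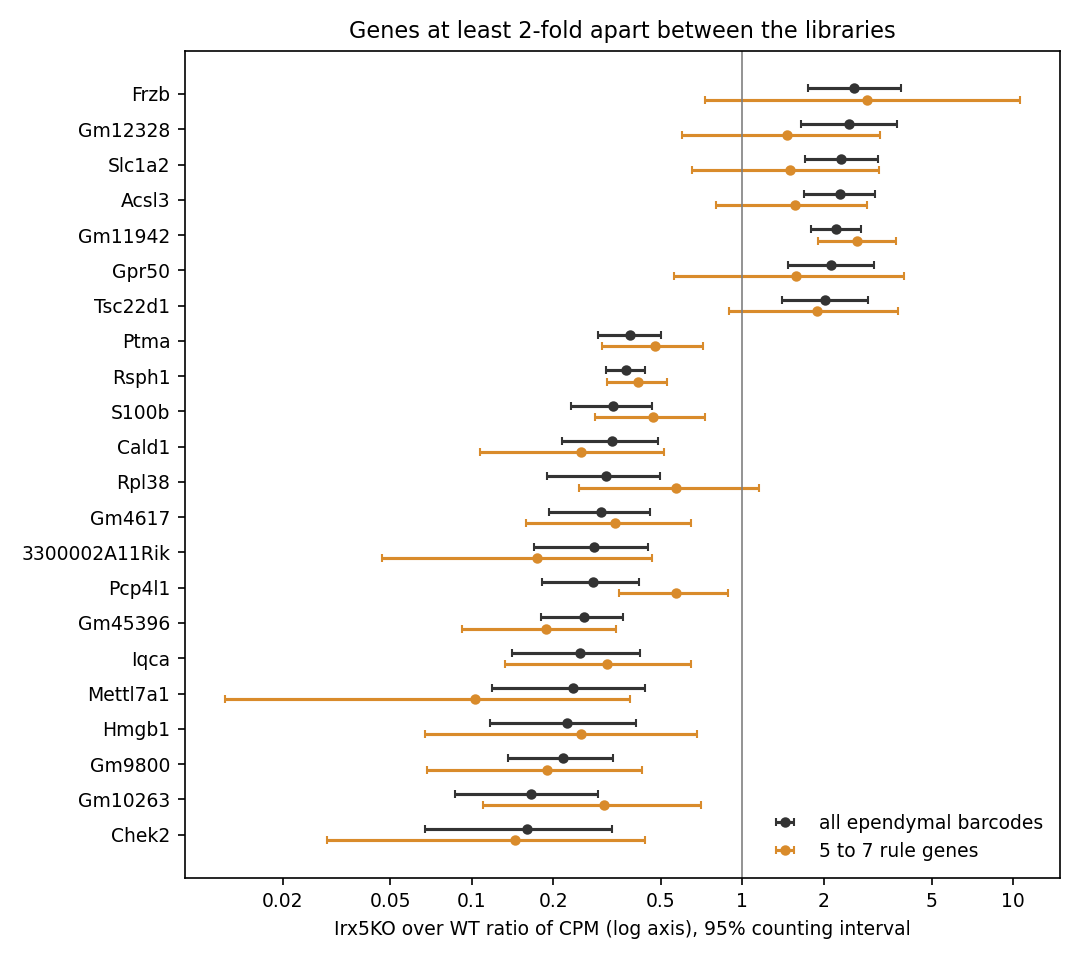
Ratio of CPM, Irx5KO over WT, with 95% counting intervals on a log axis, for the genes the naming rule took as at least 2-fold apart, over all ependymal barcodes and over those with 5 to 7 rule genes. The lower genes keep their side in the 5 to 7 range, whereas 5 of the 7 higher genes fall under 2-fold there.

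Of the 10 tanycyte markers, 8 had more CPM in Irx5KO members than in WT members, among them Crym, a thyroid hormone-binding protein, at 470 CPM in Irx5KO and 236 CPM in WT, and Col23a1, a transmembrane collagen, at 444 CPM in Irx5KO and 252 CPM in WT. Scn7a and Col25a1 were the other two, with 36.2 CPM in Irx5KO against 47.7 CPM in WT for Scn7a and 67.1 CPM in Irx5KO against 87.0 CPM in WT for Col25a1. The lipid and glucose list had 1 of 15 genes at least 2-fold higher and 0 lower. Aldoc, a glycolytic enzyme of astroglia, had 1632 CPM in Irx5KO and 819 CPM in WT members, a ratio of 1.99 (1.69 to 2.34), 1.92 (1.24 to 2.92) in the 5 to 7 range and 1.505 in tanycyte barcodes. Of 5 measured antigen presentation genes, 0 were 2-fold apart in either direction over all members. In the 5 to 7 range H2-D1, a class I histocompatibility gene, had 591 CPM in Irx5KO and 292 CPM in WT, a ratio of 2.03 (1.25 to 3.22).

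The medians of the remaining lists lay nearer to that of all genes than those of the cilium lists did. Nuclear oxidative phosphorylation genes had 0 of 52 at least 2-fold higher and 2 lower, with a median log2 ratio of -0.12, and mitochondrially encoded genes 0 of 8 in either direction. Heat shock genes had a median of -0.31 and immediate early genes, which dissociation can induce, -0.11, with 1 gene of each list at least 2-fold lower. Metallothionein genes on the Irx chromosome did not share 1 ratio, since Mt1 gave 0.83 (0.75 to 0.91), Mt2 0.92 (0.79 to 1.07) and Mt3 0.54 (0.49 to 0.61). Mt3 was also lower in the 5 to 7 range, at 0.65 (0.55 to 0.77), in tanycyte barcodes, at 0.75, and in all other barcodes, at 0.63. Rax, a homeobox gene of tanycytes, was at 2.85 (1.78 to 4.63) over all members and at 0.90 (0.09 to 4.35) in the 5 to 7 range.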

How the data were processed

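For WT the authors deposited raw UMI counts. For Irx5KO, and for both libraries joined in a merged table, they deposited natural log values of 1 plus the count, each barcode having been scaled to 10000, as seen in the values themselves. All values in the merged table inverted to whole UMIs within 1e-06, and 0 of 4275938 UMIs of WT barcodes shared with the raw table differed. The design had assumed raw counts, and the recovered counts of the merged table were used throughout. STAR 2.6.0b, Seurat 3, Picard, bcl2fastq and mm10 are named in the submitters' processing notes, without roles.

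UMIs were summed over members per library and scaled to CPM. Ratios have exact conditional binomial 95% intervals and shares exact Clopper-Pearson intervals, which cover counting error only. A gene was measured with at least 50 UMIs over both libraries. Kept barcodes held 587 to 14342 UMIs in Irx5KO and 587 to 14524 in WT. Other classes were barcodes outside the rule with at least 3 markers of that class and at most 2 of the 5 neuronal genes. They also had more of these markers than of any other class list among tanycytes, astrocytes, oligodendrocytes, their precursors, microglia and vascular leptomeningeal cells. Neurons had at least 4 of the 5 neuronal genes and fewer than 2 of the 7 ependymal rule genes. The interval calculation was tested on simulated data.

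The members and lists were chosen with earlier results of these data known. Named genes were the rule genes, label markers and Irx neighbours, the 30 with the highest ratio to other barcodes, up to 15 per direction at least 2-fold apart with 100 UMIs or more, ordered by the bound of the interval closest to a ratio of 1, and up to 4 per list by UMIs and by bound. A part of them is described. Alternatives changed the member rule, filters, scaling and thresholds. Python 3.11.15, numpy 2.4.6, scipy 1.17.1, pandas 2.3.3, matplotlib 3.10.9 and R 4.3.3 with edgeR 4.0.16 (TMM factors only) were used. Gene types came from GENCODE vM21 on GRCm38.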

Additional observations from a re-analysis of the deposited data

Results flagged for a closer look

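Tsc22d1 lay on opposite sides of 1 in ependymal barcodes and in all other barcodes, with an Irx5KO over WT ratio of 2.03 in members and 0.853 in the others. 3300002A11Rik, annotated as antisense, did the same, with 0.282 in members and 1.97 in the others. With 1 library per genotype neither difference was tested.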

How the results depend on the processing

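The Irx5KO over WT ratio of the ependymal share, 0.492, was below 1 under every alternative run, and the rule for members moved it most. It was 0.701 with at least 2 of 7 rule genes, 0.375 with at least 4, 0.258 with at least 5, 0.755 with 3 or 4, 0.330 with none of the 5 neuronal genes, 0.358 without members that had 3 or more markers of another class and 0.340 after thinning to 1000 UMIs. Other minimums of genes, a 5% mitochondrial limit and each library's own table gave 0.448 to 0.528. Genes at least 2-fold higher and lower in Irx5KO numbered 60 and 166. They numbered 108 higher with at least 2 rule genes, 29 and 103 with at least 4, 17 and 87 with at least 5, 22 and 40 with 3 or 4, 6 and 15 with no neuronal gene, 22 and 102 without other-class markers, 325 and 554 at 20 UMIs, 9 and 45 at 100 UMIs, and 252 and 416 at 1.5-fold. Fewer or more barcodes or genes then enter. Scaling by TMM (45 and 208) or median of ratios (72 and 150) stayed within 1.5 times. Of the lists with 3 or more measured genes, which leaves out the multiciliation factors with 1, 3 had a median at least 0.5 from that of all genes, also with the rule genes left out. This was 0 with at least 4 or with 3 or 4 rule genes, 1 with at least 5, without other-class markers, or without the deepest barcode of each library, and 5 at 20 UMIs. Against tanycyte barcodes 20 genes were at least 10-fold higher, in place of 67. Of 48 named genes 2-fold apart, 42 kept their direction in all 15 settings. Reversed log2 ratios were 0.21 for 1700012B09Rik, -0.28 for Tsc22d1 and 0.047 for Cd24a with no neuronal gene, 0.71 for Cdhr3 with 3 or 4 rule genes, -0.19 for Rax without other-class markers and -0.15 with at least 5 rule genes, and 0.092 for Hspb1 with at least 2. The cause was not tested. The settings of at least 5 and of 3 or 4 rule genes, and lists without rule genes, were chosen after seeing the data.

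No paired analysis was possible because each genotype is 1 pooled library. At this depth, genes under 50 UMIs in members were not compared, and 27 Irx5KO barcodes carry all values of the 5 to 7 range in that library.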
